A study of Mus musculus with 6 samples.

Results

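RNA polymerases I, II and III are the nuclear enzymes that copy DNA into RNA, and each is built from many protein subunits, some its own and some shared. The genes described here are those whose symbol starts with Polr1, Polr2 or Polr3 followed by a letter, which gave 28 of the 25124 genes listed, and 27 of these are reported. The rule reads the symbols alone. They comprise 3 genes used by Pol I alone, 2 shared by Pol I and III, 8 of Pol II, 9 used by Pol III alone and 5 shared by all 3 enzymes. Polr2m, counted with Pol II, encodes GDOWN1, which binds a fraction of Pol II and is not a core subunit.

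The cells were RAW264.7, a mouse macrophage-like line, in a control derivative (CTRL) that had received a Cas9 plasmid with no guide RNA and had been made for comparison with an E4BP4 knockout line. M2 cells were given IL-4, the cytokine of alternative macrophage activation, at 10 ng/ml, and M0 cells were not. Both groups carried the same Cas9 treatment and were cultured with 25 mM glucose and 10% serum, and each had 3 libraries of poly(A) RNA made from 200 ng of total RNA. The labels do not say whether the control derivative is 1 clone, how long IL-4 was given or whether replicates are separate cultures, and p-values therefore measure the spread among these libraries alone, which may be technical.

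Pol I makes the large ribosomal RNA precursor in the nucleolus, Pol II makes messenger RNA, and Pol III makes transfer RNA, 5S ribosomal RNA and other short RNAs. The same core recurs in all 3 enzymes: a pair of large subunits that form the catalytic cleft, an assembly platform, a stalk and a set of small common subunits, to which Pol I and Pol III add subunits that resemble initiation factors of Pol II. In macrophages Pol III is also known as a cytosolic sensor that copies foreign DNA into RNA. The libraries hold the messenger RNAs of the subunits. Ribosomal and transfer RNA carry no poly(A) tail and were not analysed here.

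The libraries held 18139902 to 19511192 reads in M2 and 15615639 to 18110568 in M0, as recovered from TPM and model length. All 10 macrophage markers were detected, with summed levels of 2950 to 3094 TPM in M2 libraries and 3170 to 3514 TPM in M0 libraries. They moved apart, with Adgre1, Fcgr3 and Mertk called higher in M2, Itgam, Ptprc and Tyrobp called lower and 4 not called. All 5 markers of the IL-4 response were higher in M2. All markers in the table for T cells, B cells, epithelium, fibroblasts and endothelium stayed below 1 TPM in every library, as did 4 of 5 neutrophil markers, the exception being S100a8 (summed neutrophil level 4.12 to 5.75 TPM in M2 libraries and 4.50 to 5.85 TPM in M0 libraries). In bulk samples fewer cells of a type and less RNA per cell cannot be told apart. The titles of all 3 M0 libraries and of no M2 library carry a re-analysis note, and a batch that went with this note could not be told apart from IL-4.

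M2 replicate 3 stood apart from the other M2 libraries in a trend with the length of the transcript model, and subunit genes span much of that range, with models of 488 to 6703 bases. The 7 subunit genes with the longest models were all lower in M2 replicate 3 than the mean of M2 replicates 1 and 2, at 0.597 to 0.918 times that mean. The 7 with the shortest models were all higher, at 1.06 to 1.39 times. Across all tested genes the 10% with the longest models deviated in M2 replicate 3 by -0.226 and the 10% with the shortest by 0.103 on the log2 scale from the group mean. The part of this trend in a single gene's value was not tested. Some results are also given without M2 replicate 3, or with the length trend removed from each library. Each subunit gene whose call this changed is among them.

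**Figure D1:**
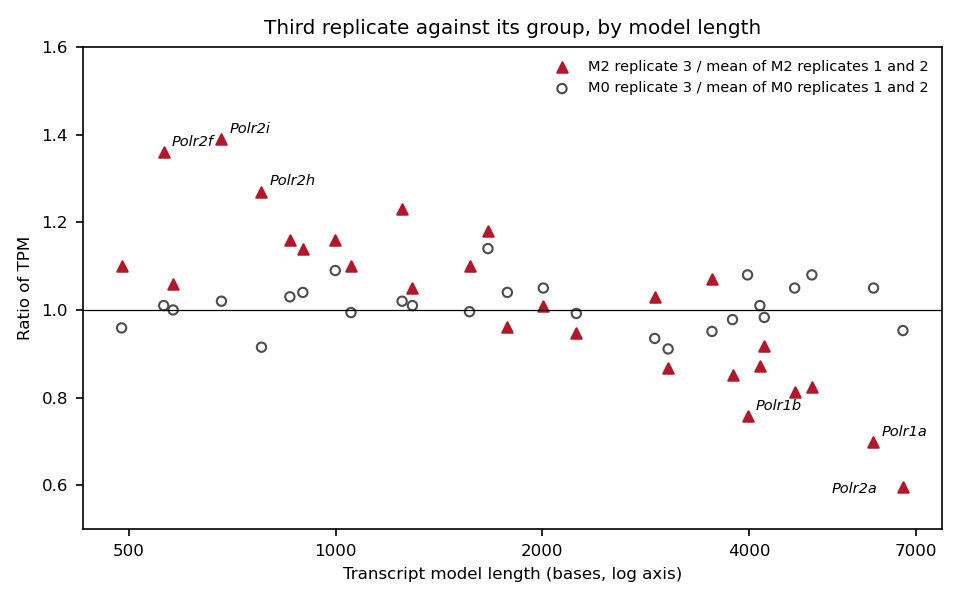
Ratio of the TPM of the third replicate to the mean TPM of replicates 1 and 2 of its group (y axis, linear) against the length of the transcript model (x axis, bases, log axis), 1 point per subunit gene; triangles are M2 and open circles are M0. M2 ratios ran down with length, to 0.597 for Polr2a with its model of 6703 bases, while Polr2i stood at 1.39 and Polr2f at 1.36.

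Levels are given as TPM, an abundance per transcript adjusted for depth and model length, so that levels of different genes can be set side by side. Values of single libraries are given for replicates 1, 2 and 3 in that order. Differences are log2 fold changes of M2 minus M0 on log2(TPM + 1), a scale that understates the change of low genes, tested with limma across 11202 genes. A gene is called higher or lower where the Benjamini-Hochberg adjusted p was under 0.05. Of all tested genes 43.7% were called (20.1% higher and 23.7% lower in M2), and for 55.9% the M2 and M0 libraries did not overlap.

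All 27 subunit genes passed the filter on low values, the least covered being Polr2l with at least 170 reads in each library. In M2 cells 12 of 27 were called higher (44.4%, against 20.1% of all tested genes) and 2 were called lower (7.41%, against 23.7%). The other 13 were not called. The groups did not overlap for 16 of 27 (59.3%), close to the 55.9% of all tested genes. The median log2 fold change of the subunit genes was 0.19, where that of all tested genes was -0.03. These shares describe the members and were not tested as a set. By enzyme, 2 of 3 Pol I genes, 2 of 2 genes shared by Pol I and III, 4 of 9 Pol III genes, 3 of 8 Pol II genes and 1 of 5 genes common to all were called higher. With the shared genes counted into each enzyme, Pol I had 5 of 10 called higher and 0 lower, Pol III 7 of 16 higher and 2 lower, and Pol II 4 of 13 higher and 0 lower. For Pol I and Pol II the count called lower was also 0 at an unadjusted p under 0.05 and with limma-voom.

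**Figure D2:**
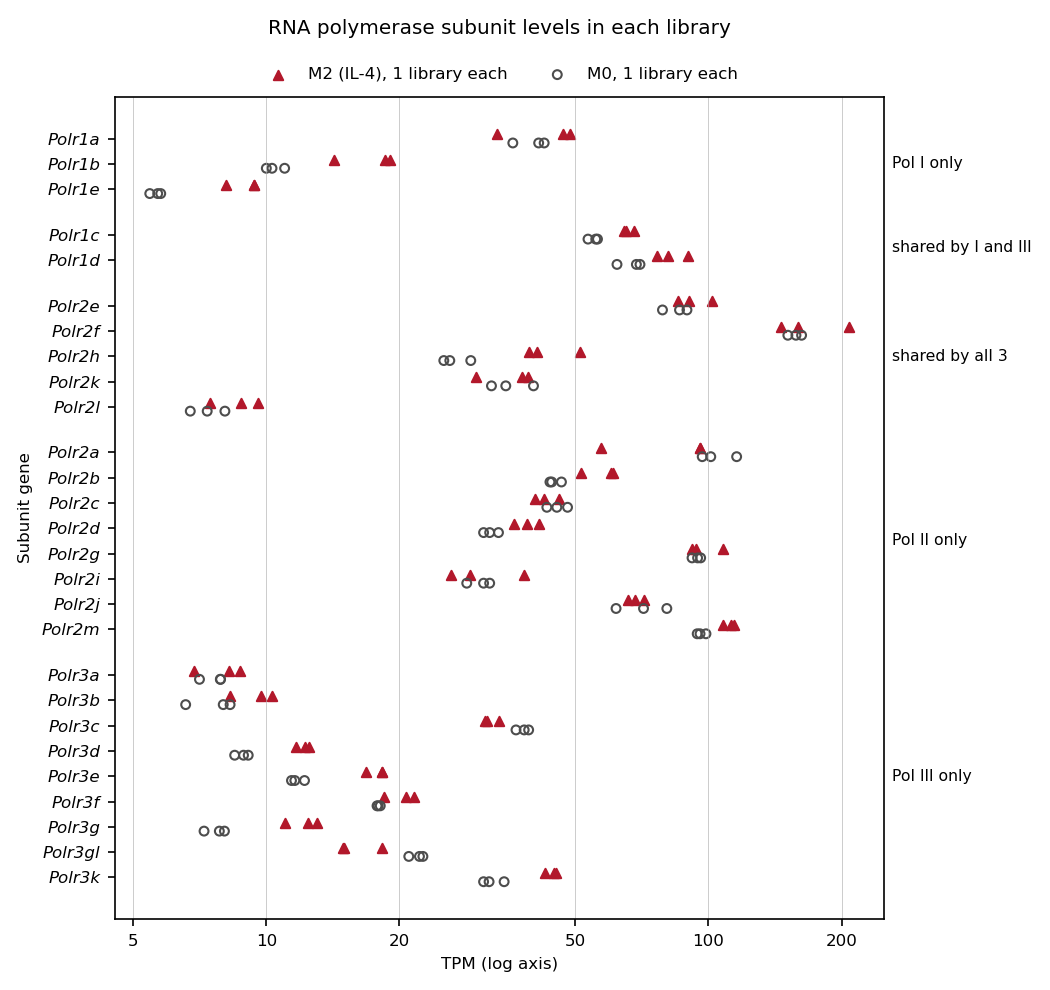
TPM (x axis, log axis) of the 27 subunit genes in each library, with red triangles for the 3 M2 libraries and open circles for the 3 M0 libraries, grouped by the enzyme that uses them. In M2 Polr3e lies wholly to the right (16.8 to 18.3 TPM, against 11.4 to 12.2 TPM in M0) and Polr3gl wholly to the left, and Polr2c overlaps. The groups did not overlap for 7 of 9 Pol III genes and 4 of 8 Pol II genes, against 55.9% of all tested genes.

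Polr2f, the common subunit RPB6, was highest in both groups, at 171.3 ± 32.7 TPM in M2 and 157.1 ± 5.61 TPM in M0 (SD, n = 3 each). The lowest means in M2 were those of Polr3a, Polr2l, Polr1e and Polr3b, at 7.93, 8.61, 8.95 and 9.43 TPM, and neighbours in that order differed by less than their SDs of 0.737 to 1.08 TPM. In M0 Polr1e was lowest at 5.63 ± 0.167 TPM, and Polr2l, Polr3a, Polr3b and Polr3g came next at 7.38 to 7.70 TPM, again closer to each other than their SDs. Summed over its genes, Pol II stood at 530.9 ± 9.87 TPM in M2 and 519.1 ± 3.71 TPM in M0, and its libraries overlapped. The sum of the 9 Pol III genes was 171.3, 176.3 and 168.3 TPM in M2, against 153.2, 154.1 and 154.3 TPM in M0, with no overlap. The genes shared by Pol I and III summed to 145.2, 141.5 and 157.7 TPM in M2, against 126.2, 115.5 and 124.2 TPM in M0, again with no overlap. The Pol I sum was 76.4, 74.0 and 56.9 TPM in M2, against 51.8, 58.5 and 57.7 TPM in M0. There M2 replicate 3 lay among the M0 libraries, and Polr1a, with a model of 6073 bases, was the largest term of the sum.

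In Pol I, the second-largest catalytic subunit and the subunit PAF53 rose, while the largest subunit was not called. Polr1b, which encodes the second-largest subunit RPA135, stood at 18.6, 19.0 and 14.2 TPM in M2, against 10.0, 10.3 and 11.0 TPM in M0. Every M2 library lay above every M0 library, the lowest being M2 replicate 3. Its log2 fold change was 0.67 (SE 0.11, adjusted p = 0.00141 by limma), a ratio of mean TPM of 1.66. Polr1e encodes PAF53, which together with RPA34 forms a module that acts in initiation and elongation. Its levels were 9.40, 8.10 and 9.36 TPM in M2, against 5.68, 5.77 and 5.45 TPM in M0, with no overlap (log2 fold change 0.58, SE 0.087, adjusted p = 8.70e-04).

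Polr1a encodes RPA194, the largest subunit of Pol I, and its levels were 48.5, 47.0 and 33.3 TPM in M2, against 36.1, 42.5 and 41.3 TPM in M0. M2 replicates 1 and 2 lay above all M0 libraries and M2 replicate 3 below all of them. The log2 fold change was 0.08 with a 95% interval of -0.22 to 0.39 (adjusted p = 0.632 by limma). It was 0.25 when M2 replicate 3 was left out (adjusted p = 0.0190) and 0.19 after removal of the length trend (adjusted p = 0.0445). Polr1a was called under 3 of 17 alternatives, each of which left out that library, removed the trend or did both.

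Polr1c and Polr1d encode RPAC1 and RPAC2, a pair that forms the assembly platform of Pol I and of Pol III, and both rose by about the same ratio. Polr1c was at 64.4, 65.1 and 67.8 TPM in M2, against 56.1, 53.4 and 55.6 TPM in M0, a ratio of means of 1.20 (log2 fold change 0.25, SE 0.053, adjusted p = 0.00495 by limma). Polr1d was at 80.8, 76.4 and 89.9 TPM in M2, against 70.0, 62.1 and 68.7 TPM in M0, a ratio of 1.23 (log2 fold change 0.29, SE 0.075, adjusted p = 0.0126). For both genes the lowest M2 library lay above the highest M0 library. The call of Polr1d ended without M0 replicate 2 (adjusted p = 0.0568).

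**Figure D3:**
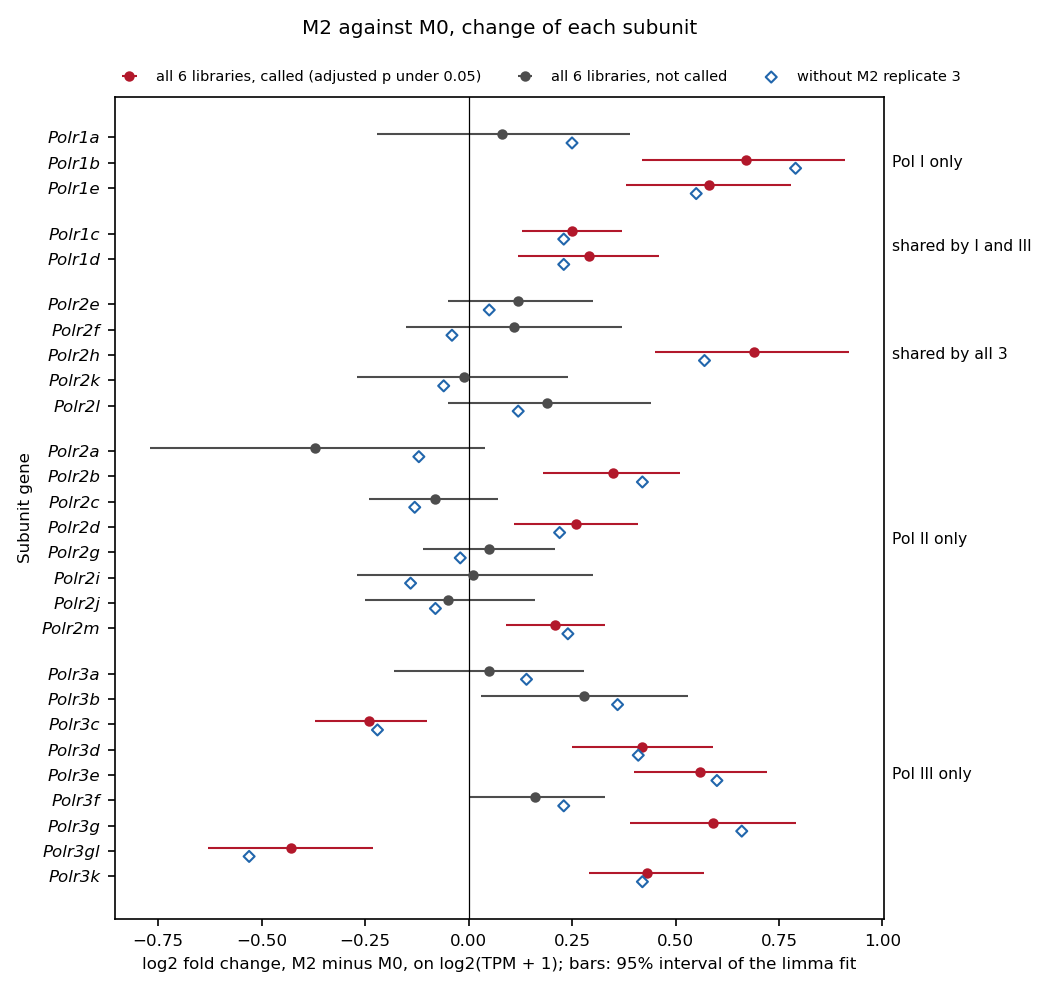
Log2 fold change of M2 minus M0 on log2(TPM + 1) (x axis) for each of the 27 subunit genes (y axis, grouped by enzyme), with bars for the 95% interval of the limma fit on all 6 libraries, red where called and grey where not; open diamonds are the values without M2 replicate 3. Polr3gl at -0.43 and Polr3c at -0.24 are the called genes to the left of 0, and the interval of Polr2a is the widest (-0.77 to 0.04).

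The subunits of Pol III moved in both directions. Of its 9 own genes 4 were called higher (44.4%, against 20.1% of all tested genes). Called lower were 2 (22.2%, near the 23.7% of all tested genes), and 3 were not called. Polr3d and Polr3e encode RPC4 and RPC5, which bind each other and resemble the Pol II factor TFIIF, as PAF53 and RPA34 do in Pol I. Polr3e stood at 18.3, 18.3 and 16.8 TPM in M2, against 11.4, 12.2 and 11.6 TPM in M0 (log2 fold change 0.56, SE 0.071, adjusted p = 3.66e-04 by limma). Polr3d stood at 12.5, 11.7 and 12.2 TPM in M2, against 8.48, 8.88 and 9.10 TPM in M0 (log2 fold change 0.42, SE 0.073, adjusted p = 0.00197). Neither gene's groups overlapped. Polr3k encodes RPC10, which serves RNA cleavage and termination. It was the most abundant of the genes used by Pol III alone in M2, at 42.6, 44.7 and 45.1 TPM, against 34.5, 31.9 and 31.0 TPM in M0, where Polr3c was higher. Its log2 fold change was 0.43 (SE 0.063, adjusted p = 7.11e-04), and again no M0 library reached the M2 range.

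RPC3, RPC6 and RPC7 form a trimer that Pol III needs to start transcription, and its genes did not move as 1 group. Polr3c, for RPC3, was at 31.5, 33.6 and 31.3 TPM in M2, against 36.7, 38.3 and 39.2 TPM in M0. All M2 libraries lay below all M0 libraries, with a log2 fold change of -0.24 (SE 0.060, adjusted p = 0.0119 by limma). The call ended without M0 replicate 2 (adjusted p = 0.0518) or M0 replicate 3 (adjusted p = 0.0609). Polr3f, for RPC6, was at 20.7, 21.6 and 18.5 TPM in M2, against 17.9, 17.8 and 18.1 TPM in M0. The groups did not overlap, although M2 replicate 3 lay close to the M0 libraries, and the gene was not called (log2 fold change 0.16, SE 0.074, adjusted p = 0.103). Without M2 replicate 3 it was called higher (0.23, adjusted p = 0.00885).

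RPC7 exists in 2 forms made by separate genes, Polr3g for RPC7 alpha, known from stem cells and tumour cells, and Polr3gl for RPC7 beta, the form of most tissues. An enzyme takes up 1 of them. The genes moved in opposite directions. Polr3g rose, at 12.4, 13.0 and 11.0 TPM in M2, against 8.04, 7.83 and 7.23 TPM in M0, with a log2 fold change of 0.59 (SE 0.087, 95% interval 0.39 to 0.79, adjusted p = 7.95e-04 by limma). Polr3gl fell, at 14.9, 15.0 and 18.3 TPM in M2, against 22.6, 21.0 and 22.2 TPM in M0, with a log2 fold change of -0.43 (SE 0.089, 95% interval -0.63 to -0.23, adjusted p = 0.00438). Neither gene's groups overlapped, and for both genes M2 replicate 3 was the M2 library nearest to M0. Both were called under all 17 alternatives. Exons of Polr3gl overlap those of Gm16253 on the other strand, which was not analysed here, and reads of the 2 cannot be told apart.

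Per library, Polr3g made up 45.5%, 46.4% and 37.6% of the summed TPM of the pair in M2, against 26.3%, 27.2% and 24.5% in M0. The mean share was 43.2% ± 4.88 in M2 and 26.0% ± 1.33 in M0 (SD, n = 3 each), a difference of 17.2 percentage points. A two-sided exact permutation test gave p = 0.1, the smallest value that 3 against 3 libraries allow. Since Polr3g was higher and Polr3gl lower in every M2 library, this outcome was fixed in advance and adds nothing to the values. With each library left out in turn the difference was 15.5 to 20.0 points. The sum of the pair was 27.3, 28.0 and 29.3 TPM in M2, against 30.6, 28.8 and 29.4 TPM in M0, and these ranges overlapped (exact permutation p = 0.2, two-sided). In M2 the share of Polr3g stayed below that of Polr3gl in every library.

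**Figure D4:**
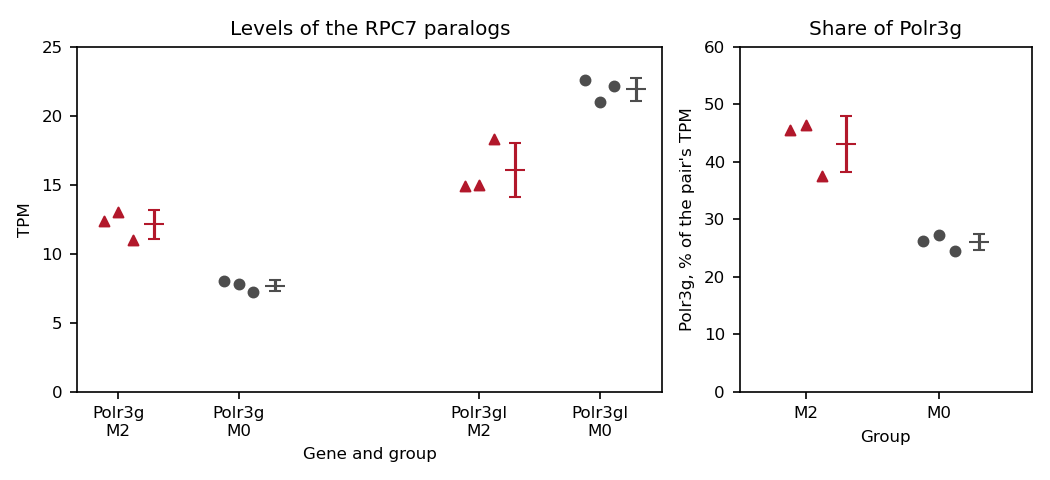
Left, TPM of Polr3g and Polr3gl in each of the 3 M2 libraries (red triangles) and 3 M0 libraries (grey circles). Right, Polr3g as a percentage of the summed TPM of both genes; bars beside the points are mean and SD. Polr3g is higher and Polr3gl lower in M2, and the share of Polr3g is 43.2% in M2 and 26.0% in M0.

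The upstream DNA of these paralogs is shown because they moved apart, and the 250 bases before each start were searched for 3 motifs. Polr3g lies on chr13:81673837-81711013 and Polr3gl on chr3:96577872-96594181, both on the minus strand of mm10. The promoters, from RefSeq on GRCm38.p6, the assembly behind mm10, run from chr13:81711014-81711263 for Polr3g and from chr3:96594182-96594431 for Polr3gl, are written 5′ to 3′ on the minus strand and end at the base before the start. Capitals mark CTTCCGG, the other strand of the ETS-type motif CCGGAAG, in Polr3g, and the E-box CACGTG in Polr3gl.
Polr3g: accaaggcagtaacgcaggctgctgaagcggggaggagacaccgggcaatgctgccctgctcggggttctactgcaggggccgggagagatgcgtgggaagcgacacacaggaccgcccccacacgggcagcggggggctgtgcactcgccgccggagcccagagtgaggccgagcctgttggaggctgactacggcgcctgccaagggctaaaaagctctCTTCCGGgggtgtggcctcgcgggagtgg
Polr3gl: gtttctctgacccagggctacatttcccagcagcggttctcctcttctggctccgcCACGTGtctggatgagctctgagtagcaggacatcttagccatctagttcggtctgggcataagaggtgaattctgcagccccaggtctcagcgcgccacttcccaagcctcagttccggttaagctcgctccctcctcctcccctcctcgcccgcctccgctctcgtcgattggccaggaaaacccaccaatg
The G and C content was 68.4% in the Polr3g window and 59.2% in the Polr3gl window. The ETS-type letters lay 29 to 23 bases before the Polr3g start and the E-box 194 to 189 bases before the Polr3gl start. Promoters were matched for 22 of the 27 subunit genes. On either strand CCGGAAG was found in 5 of these 22 (Polr1c, Polr2j, Polr2f, Polr3b and Polr3g) and in 6.91% of 32851 promoters, and CACGTG in 2 of 22 (Polr3c and Polr3gl) and in 6.02%. TTC and GAA separated by 4 bases, the pattern bound by STAT6 downstream of the IL-4 receptor, was in 0 of 22 and in 5.85% of all. Overlaps between motifs were not removed, and a match or its absence in this window says nothing of a factor's binding. Of the 5 genes with the ETS-type letters, Polr1c and Polr3g were called higher and 3 were not called. Among all 27 subunit genes 44.4% were called higher, and among all tested genes 20.1%. A link between the letters and the calls was not tested.

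The catalytic subunits of Pol III were low. Polr3b, for the second-largest subunit RPC2, was at 10.3, 9.75 and 8.26 TPM in M2, against 6.57, 8.28 and 7.99 TPM in M0, where M2 replicate 3 lay within the M0 range. Its log2 fold change was 0.28 (95% interval 0.03 to 0.53, adjusted p = 0.0720 by limma). It was called under 6 of 17 alternatives, among them without M2 replicate 3 (0.36, adjusted p = 0.0144) and after removal of the length trend (0.36, adjusted p = 0.00275). Polr3a, for the largest subunit RPC1, was at 8.22, 8.70 and 6.87 TPM in M2, against 7.06, 7.88 and 7.87 TPM in M0. Those ranges overlapped and the log2 fold change was 0.05 (95% interval -0.18 to 0.28, adjusted p = 0.717).

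Pol II had the smallest median log2 fold change of the 5 classes, 0.03 over its 8 genes. Polr2b, for the second-largest subunit RPB2, rose to 60.2, 60.7 and 51.5 TPM in M2, against 43.8, 46.5 and 44.2 TPM in M0 (log2 fold change 0.35, SE 0.074, adjusted p = 0.00517 by limma). The groups did not overlap. Its exons overlap those of Igfbp7 on the other strand, and Igfbp7 was itself called higher. Whether the counting used strand is unknown here, and reads of such overlapping genes cannot be told apart, which holds for 9 subunit genes in all, of which Polr2b, Polr2h and Polr3gl were called.

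Polr2d, which encodes the stalk subunit RPB4, stood at 38.8, 36.3 and 41.3 TPM in M2, against 33.5, 31.0 and 32.0 TPM in M0 (log2 fold change 0.26, SE 0.067, adjusted p = 0.0124 by limma). Every M2 library lay above every M0 library, and the call ended without M0 replicate 2 (adjusted p = 0.0586). Polr2g, for RPB7, its partner in the stalk, was at 91.8, 93.6 and 107.9 TPM in M2, against 94.5, 91.8 and 96.0 TPM in M0, and was not called (log2 fold change 0.05, 95% interval -0.11 to 0.21, adjusted p = 0.574). Polr2m, for GDOWN1, rose to 114.4, 112.5 and 107.6 TPM in M2, against 94.3, 98.7 and 95.7 TPM in M0 (log2 fold change 0.21, SE 0.052, adjusted p = 0.0108), without overlap. Its ratio of means was 1.16.

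Polr2a encodes RPB1, the largest subunit, whose repeated C-terminal tail is phosphorylated as transcription starts and proceeds. Its levels were 95.7, 95.8 and 57.2 TPM in M2, against 96.8, 115.8 and 101.2 TPM in M0. The groups did not overlap, yet M2 replicates 1 and 2 lay just under the lowest M0 library and M2 replicate 3 far below. The log2 fold change was -0.37 (95% interval -0.77 to 0.04, adjusted p = 0.127 by limma). It was -0.12 when M2 replicate 3 was left out (adjusted p = 0.202) and -0.25 after removal of the length trend (adjusted p = 0.0819), and the gene was called under 0 of 17 alternatives.

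The remaining Pol II genes, Polr2c and Polr2j for the platform pair RPB3 and RPB11 and Polr2i for RPB9, overlapped between groups and were not called. Polr2c averaged 42.9 ± 2.62 TPM in M2 and 45.5 ± 2.46 TPM in M0, and its log2 fold change was -0.08 (95% interval -0.24 to 0.07). Polr2j averaged 68.4 ± 2.77 TPM in M2 and 71.2 ± 9.36 TPM in M0, with an interval of -0.25 to 0.16. Polr2i averaged 31.2 ± 6.38 TPM in M2 and 30.5 ± 1.85 TPM in M0, with an interval of -0.27 to 0.30 (SD, n = 3 each). Set beside the rise of Polr1c and Polr1d, the platform pair of Pol II thus had intervals whose upper ends were 0.07 and 0.16, where those of Polr1c and Polr1d began at 0.13 and 0.12. The difference between the pairs was not tested.

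The largest and second-largest subunits can be set side by side across the enzymes. In each enzyme the second-largest had the higher log2 fold change: 0.67 for Polr1b and 0.08 for Polr1a, 0.35 for Polr2b and -0.37 for Polr2a, and 0.28 for Polr3b and 0.05 for Polr3a. The same order was found without M2 replicate 3, with 0.79 and 0.25 in Pol I, 0.42 and -0.12 in Pol II and 0.36 and 0.14 in Pol III. With the length trend removed the values were 0.71 and 0.19 in Pol I, 0.39 and -0.25 in Pol II and 0.36 and 0.12 in Pol III. The largest subunits also have some of the longest models, although in Pol III Polr3b has the longer model (4939 against 4662 bases). These differences were not tested. In M2 the level of the largest subunit was above that of the second-largest in Pol I (42.9 against 17.2 TPM) and in Pol II (82.9 against 57.5 TPM). In Pol III it was below (7.93 against 9.43 TPM).

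Of the 5 subunits common to all 3 enzymes only Polr2h, for RPB8, was called, with a log2 fold change that differed from the 0.67 of Polr1b by less than the SE of either. Its levels were 39.2, 41.0 and 51.1 TPM in M2, against 29.0, 26.0 and 25.2 TPM in M0. All M2 libraries lay above all M0 libraries, with M2 replicate 3 the highest. The log2 fold change was 0.69 (SE 0.10, 95% interval 0.45 to 0.92, adjusted p = 8.42e-04 by limma) and 0.57 without M2 replicate 3 (adjusted p = 2.68e-04), where Polr1b had 0.79. Its exons overlap those of Clcn2 on the other strand, and Clcn2 was below the filter.

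The other 4 common subunits overlapped between groups. Polr2f, for RPB6, was at 159.5, 146.2 and 208.3 TPM in M2, against 162.4, 151.2 and 157.7 TPM in M0, so that its mean rested on M2 replicate 3 (log2 fold change 0.11, adjusted p = 0.471 by limma, and -0.04 without that library). Polr2e, for RPB5, averaged 92.6 ± 8.69 TPM in M2 and 84.7 ± 5.47 TPM in M0 (log2 fold change 0.12, 95% interval -0.05 to 0.30). Polr2l, for RPB10, averaged 8.61 ± 1.08 TPM in M2 and 7.38 ± 0.665 TPM in M0, with an interval of -0.05 to 0.44. Polr2k, for RPB12, averaged 35.5 ± 5.00 TPM in M2 and 35.8 ± 4.04 TPM in M0, with an interval of -0.27 to 0.24 (SD, n = 3 each), and the annotation holds a processed pseudogene of it between which and the gene reads could be split. The intervals allow a rise of the size seen for Polr1c in Polr2e, Polr2f and Polr2l, so the lack of a call does not show that these genes stayed level.

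Another 4 subunits carry symbols outside the pattern. All of them were called higher, against 20.1% of all tested genes. Twistnb, for the Pol I stalk subunit RPA43, was at 34.6, 41.8 and 36.5 TPM in M2, against 24.2, 25.5 and 24.9 TPM in M0 (adjusted p = 4.74e-04 by limma). Cd3eap, for RPA34, the partner of PAF53, was at 24.3, 23.2 and 29.7 TPM in M2, against 16.1, 16.4 and 16.3 TPM in M0 (adjusted p = 7.86e-04). Neither overlapped, and their log2 fold changes, 0.58 and 0.62, lay beside the 0.58 of Polr1e. Crcp, for the Pol III stalk subunit RPC9, was at 19.1, 19.1 and 17.4 TPM in M2, against 14.6, 15.5 and 14.4 TPM in M0 (log2 fold change 0.31, adjusted p = 0.00822). Znrd1, for the Pol I cleavage subunit RPA12, was at 61.6, 65.6 and 75.2 TPM in M2, against 59.0, 52.2 and 54.2 TPM in M0 (log2 fold change 0.28, adjusted p = 0.0218). The groups did not overlap for these genes either. The call of Znrd1 ended without M0 replicate 2 (adjusted p = 0.0840) or M0 replicate 3 (adjusted p = 0.0737) and when low genes were kept (adjusted p = 0.0565).

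The Pol I factors are those that bring the enzyme to ribosomal DNA, together with others that remodel or silence its chromatin, end transcription or join it to processing of the transcript. Of 11 tested 8 were called higher (72.7%) and 1 lower (9.09%), against 20.1% and 23.7% of all tested genes, with a median log2 fold change of 0.29. Ubtf, the factor that binds along the ribosomal DNA promoter and gene body, was at 68.9, 70.8 and 66.9 TPM in M2, against 44.7, 47.5 and 48.0 TPM in M0 (adjusted p = 1.12e-04 by limma). Nol11, of the complex that joins transcription to processing of ribosomal RNA, averaged 42.1 ± 2.66 TPM in M2 and 27.2 ± 0.774 TPM in M0 (SD, n = 3 each). Rrn3, which couples Pol I to its promoter factors, averaged 31.6 ± 1.74 TPM in M2 and 25.1 ± 1.83 TPM in M0 (adjusted p = 0.00811). The gene called lower was Baz2a, for TIP5, which silences ribosomal DNA, at 8.99, 9.11 and 6.54 TPM in M2, against 12.0, 14.0 and 13.2 TPM in M0 (adjusted p = 0.00365). Its log2 fold change was -0.62, and it was -0.48 both without M2 replicate 3 and with the length trend removed.

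Among 19 Pol III factors 3 were called higher (15.8%, against 20.1% of all tested genes) and 1 lower (5.26%, against 23.7%), with a median of -0.03. Gtf3c6, a subunit of the DNA-binding factor TFIIIC, averaged 20.8 ± 0.727 TPM in M2 and 15.6 ± 0.234 TPM in M0. Ssb, the La protein that binds the ends of new Pol III transcripts, averaged 312.2 ± 19.8 TPM in M2 and 249.0 ± 6.61 TPM in M0 (SD, n = 3 each). Maf1, the repressor of Pol III, was the 1 gene called lower, at 57.3, 61.2 and 61.5 TPM in M2, against 70.3, 75.7 and 75.8 TPM in M0 (log2 fold change -0.30, SE 0.058, adjusted p = 0.00359 by limma). Every M2 library of Maf1 lay below every M0 library. The count of factors called higher was 6 without M2 replicate 3 (31.6%, against 25.6% of all tested genes in that fit). It was 2 at the lowest, without M0 replicate 3, where 1646 of the 11202 tested genes were called higher, against 2248 in the main fit.

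Of 31 general factors of Pol II 10 were called higher (32.3%, against 20.1% of all tested genes) and 2 lower (6.45%, against 23.7%), with a median log2 fold change of 0.12. Gtf2h2, of the helicase factor TFIIH, averaged 27.5 ± 2.36 TPM in M2 and 14.3 ± 1.46 TPM in M0, and Gtf2e1, of TFIIE, averaged 18.6 ± 1.13 TPM in M2 and 11.3 ± 0.523 TPM in M0. Gtf2b, for TFIIB, was lower in M2, at 86.0 ± 2.89 TPM, against 107.9 ± 4.26 TPM in M0, and so was Taf1, of TFIID, at 14.7 ± 2.23 TPM in M2 and 18.5 ± 1.18 TPM in M0 (SD, n = 3 each). Tbp, the TATA-binding protein used with all 3 enzymes, was at 35.3, 35.3 and 31.7 TPM in M2, against 28.8, 31.4 and 26.8 TPM in M0 (adjusted p = 0.0388 by limma). Its groups lay apart by a narrow margin, and its call ended under 6 of 17 alternatives, 4 of them the removal of 1 library, with adjusted p up to 0.154. That of Taf1 ended under 5 of 17, with adjusted p up to 0.121. The log2 fold change of Taf1 was -0.32, with -0.21 without M2 replicate 3 and -0.19 with the length trend removed. The count called higher was 6 without M0 replicate 1 or M0 replicate 2, and in both fits fewer of all tested genes were called higher too.

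Of 28 tested genes of pausing and elongation 6 were called higher (21.4%) and 8 lower (28.6%), near the 20.1% and 23.7% of all tested genes, with a median of -0.02. Without M2 replicate 3 the counts were 10 and 10 (35.7% each, against 25.6% higher and 25.2% lower of all tested genes). Ell2, of the super elongation complex, rose to 63.9 ± 5.85 TPM in M2, against 41.9 ± 1.95 TPM in M0, while its paralog Ell fell to 12.2 ± 0.732 TPM in M2, against 23.2 ± 1.88 TPM in M0 (SD, n = 3 each; adjusted p = 3.75e-04 and 7.39e-05 by limma). Wdr61, of the PAF1 complex, averaged 93.8 ± 2.47 TPM in M2 and 76.0 ± 0.973 TPM in M0. Nelfcd, of the pausing factor NELF, averaged 35.2 ± 1.07 TPM in M2 and 43.9 ± 1.70 TPM in M0. Leaving out M0 replicate 2 gave 4 called lower, where 1902 of the 11202 tested genes were called lower, against 2651 in the main fit. Leaving out M0 replicate 3 gave 5, and in that fit too fewer of all tested genes were called lower.

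Of 15 genes for polymerase assembly 5 were called higher (33.3%, against 20.1% of all tested genes) and 0 lower (against 23.7%) by limma, with a median of 0.14. The count called lower was also 0 at an unadjusted p under 0.05 and with limma-voom. Gpn1, a GTPase that brings Pol II into the nucleus, was at 17.4, 18.5 and 18.1 TPM in M2, against 11.5, 11.6 and 11.8 TPM in M0 (adjusted p = 1.98e-04 by limma). Pdrg1, of the prefoldin-like complex that serves assembly, averaged 52.2 ± 4.03 TPM in M2 and 39.9 ± 1.82 TPM in M0 (SD, n = 3 each). The count called higher was 3 without any 1 of the M0 libraries, or without M2 replicate 1 or M2 replicate 2. In each of these fits fewer of all tested genes were called higher too. Without M2 replicate 3 there were 5 higher (33.3%, against 25.6% of all tested genes) and 2 lower (13.3%, against 25.2%). In mitochondria transcription uses a separate single-subunit enzyme. Of 10 tested genes of mitochondrial transcription 7 were called higher (70.0%, against 20.1% of all tested genes) and 0 lower (against 23.7%) by limma. The count called lower was also 0 at an unadjusted p under 0.05 and with limma-voom. Without M0 replicate 2, 4 were called higher, and fewer of all tested genes were called higher in that fit too. Among the 7 of the main fit were Tefm, the elongation factor, at 21.8 ± 1.15 TPM in M2 and 13.7 ± 0.929 TPM in M0, and Mterf3, at 23.6 ± 0.992 TPM in M2 and 17.8 ± 1.23 TPM in M0. The polymerase gene itself, Polrmt, was at 11.8, 11.4 and 9.30 TPM in M2, against 9.85, 10.3 and 10.6 TPM in M0, and was not called (adjusted p = 0.618).

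**Figure D5:**
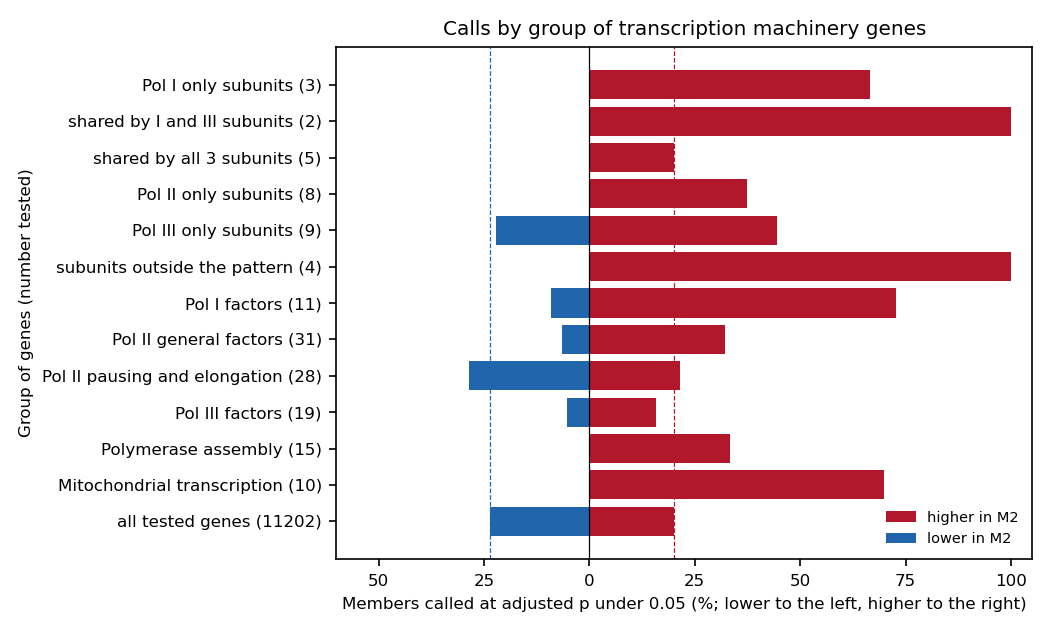
Percentage of tested members called higher (right, red) or lower (left, blue) in M2 for each class of subunit and each list of related genes, with the number tested in parentheses; dashed lines mark the percentages over all 11202 tested genes (20.1% higher, 23.7% lower). Bars of classes with few genes, such as the 2 genes shared by Pol I and III, rest on those genes alone; Pol I factors have 8 of 11 members called higher.

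The authors' deposited table called 16 of the 27 subunit genes at the same threshold, 14 higher and 2 lower in M2. It called 26.4% of its 19143 genes with a log2 fold change, in either direction. That set is larger than the 11202 genes tested here, so the 2 shares are not alike. All 14 genes called here were called in the authors' deposited table with the same sign. The 2 more in the authors' deposited table were Polr3b (log2 fold change 0.34, adjusted p = 0.00697) and Polr3f (0.21, adjusted p = 0.0251). With limma, 15 were called higher and 2 lower without M2 replicate 3, where 50.8% of all tested genes were called (25.6% higher, 25.2% lower). With the length trend removed the counts were again 15 and 2, where 55.6% of all tested genes were called (28.4% higher, 27.1% lower).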

How the data were processed

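Poly(A) RNA of 3 M2 and 3 M0 libraries was sequenced. STAR 2.7.5a, HOMER 4.11.1, bcl2fastq, DESeq2 and the build mm10 appear in the submitters' processing notes, with no role for any of them. No source used here gives the annotation or the strand setting. The authors deposited TPM values for 25124 genes, each on 1 transcript model, per the file headers. The authors also deposited a comparison table of 24421 genes with values per library, read here as log2 values from their range, and with a log2 fold change, a p-value and an adjusted p-value.

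Since the deposited files hold no counts, limma 3.58.1 (R 4.3.3) with a variance trend was fitted on log2(TPM + 1) by group, over the 11202 genes with at least 1 TPM in at least 3 libraries, with Benjamini-Hochberg adjustment. The fit was tested on simulated data. Whole reads were recovered from TPM times model length (100.0% of the values that could be judged came within 0.1 read of a whole count) and served limma-voom as an alternative. No pair of libraries was a duplicate, with chi-square per degree of freedom of 2.24 to 20.9 within groups. Intervals cover the spread between libraries only. Tables and figures were made with Python 3.11.15.

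The symbol pattern, the lists of related genes and the alternatives were chosen with earlier results of these data known. Some genes, among them 1 of the 28 of the pattern, are not reported here. The text names every other gene of the pattern, with library values for called genes and for those whose groups do not overlap. Of each other list it names up to 2 called genes with the lowest adjusted p in each direction, and also Crcp, Znrd1, Cd3eap, Twistnb, Polrmt, Tbp, Maf1, Rrn3 and Ubtf. Library values of further genes, and comparisons between the large subunits, were added after values were seen. Exon overlaps come from the GENCODE annotation of GRCm38 and promoters from RefSeq.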

Additional observations from a re-analysis of the deposited data

How the results depend on the processing

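Over 17 alternatives 11 of the 14 called subunit genes were called every time, and 0 of the 14 changed sign; the calls of Polr1d, Polr2d and Polr3c ended without single M0 libraries. The log2 fold changes that changed sign were those of 7 uncalled genes. With 1 library left out each, they ran from -0.01 to 0.25 for Polr1a, -0.04 to 0.21 for Polr2f, -0.02 to 0.09 for Polr2g, -0.14 to 0.13 for Polr2i, -0.15 to 0.04 for Polr2j, -0.08 to 0.10 for Polr2k and -0.01 to 0.14 for Polr3a. Polr2k was also at 0.02 on the authors' deposited values, with the length trend removed, with limma-voom and with median-ratio scaling. Without M2 replicate 3 and with the length trend removed, Polr2i was at -0.07, Polr2j at 0.01 and Polr2k at 0.04. The alternative without M2 replicate 3 and with the length trend removed, and the leave-out ranges of the Polr3g share (15.5 to 20.0 points), were added after the data were seen.

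Leaving out 1 library each, 1646 to 2869 genes were called higher and 1902 to 2825 lower; limma-voom on recovered reads called 2685 higher and 2684 lower. Genes shared by Pol I and III called higher numbered 1 to 2 and Pol III genes called lower 1 to 2. Among the lists, Pol I factors called higher numbered 6 to 8, mitochondrial genes 4 to 6 and Pol III factors 2 to 6. General factors numbered 6 to 11 higher and 1 to 3 lower, and elongation genes 5 to 10 higher and 4 to 10 lower. Assembly genes numbered 3 to 5 higher and 0 to 2 lower. With the length trend removed 28.4% of all tested genes were called higher, against 20.1% in the main fit. Elongation genes called higher numbered 12 with the length trend removed, with or without M2 replicate 3. Pol III factors called higher numbered 5 on the authors' deposited values or with limma-voom, 8 with the length trend removed and 6 with that library also left out, and 2 were lower with limma-voom. Assembly genes called higher numbered 3 with TPM rescaled to 1000000 per library or without the filter, and 1 was lower with the length trend removed and M2 replicate 3 left out. General factors called lower numbered 1 without the filter. The cause was not tested. With the replicate number as a block (replicate block) 2236 genes were called higher and 2634 lower, and no subunit call changed. Deviations of same-numbered libraries correlated at -0.033, 0.211 and 0.029, where those of other pairs ran from -0.202 to 0.166. Not every library correlated best with its own number. With 3 libraries per group such values cannot exclude that the numbers pair the libraries. The least covered subunit gene had 170 reads or more in each library.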

Other observations

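Polr3gl and Polr3c, the 2 subunit genes called lower, lie 117713 bases apart on chromosome 3 and are the only subunit genes within 1 Mb of each other. Some genes within 50000 bases on mm10 are given as examples, chosen after values were seen, and support nothing about the stretch as a whole. Txnip, an inhibitor of thioredoxin, averaged 62.5 ± 1.01 TPM in M2 and 102.5 ± 3.07 TPM in M0, Lix1l averaged 11.1 ± 0.637 TPM in M2 and 17.4 ± 0.676 TPM in M0, and Pias3, an inhibitor of STAT3, averaged 5.44 ± 0.626 TPM in M2 and 9.09 ± 0.348 TPM in M0 (SD, n = 3 each). Rnf115, a ubiquitin ligase beside Polr3c on the other strand, averaged 50.8 ± 2.36 TPM in M2 and 62.2 ± 2.12 TPM in M0. Gm15441, which overlaps Txnip on the other strand, was also called lower, and reads of the pair cannot be told apart. Rbm8a, of the exon junction complex, stood at 59.7 ± 6.30 TPM in M2 and 59.8 ± 1.42 TPM in M0.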
